A study of Mus musculus with 39 samples.

Results

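The amygdala response to cued fear conditioning in control mice was followed in 10 of the 39 libraries of the series: 5 from the basolateral amygdala (BLA) of trained controls and 5 from the BLA of naive controls, chosen by the tissue, genotype and training named in the sample titles. The series asked how amyloid and tau pathology together act on memory and emotion circuits, and it also holds 9 BLA libraries of APP/Tau mice and 20 hippocampal libraries. All 10 control mice were females aged 9 months that carried neither the APP nor the tau transgene but did carry CaMKIIα-Cre, which is active in glutamatergic neurons of the postnatal forebrain, and RiboTag+/-, a Cre-dependent tag on a ribosomal protein. Trained controls heard a tone of 2800 Hz and 80 dB for 30 s that closed with a foot shock of 0.8 mA for 2 s, and were killed 1 h after the shock. Naive controls carried the same alleles and had no conditioning. The labels describe no mice that heard the tone or received the shock alone, so tone, shock, handling and their pairing cannot be told apart.

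The BLA is the part of the amygdala where signals for a tone and a shock meet during fear learning. Neurons that take part in such learning switch on immediate early genes within minutes: the AP-1 factors Fos and Fosb, the zinc finger factors of the Egr family, the nuclear receptors of the Nr4a family, and the effectors Arc, which removes AMPA receptors from the synapse, and Bdnf, a neurotrophin. These transcripts are short-lived, and in each event only a sparse set of neurons makes them. The libraries here are the RiboTag input, the cleared lysate kept ahead of the ribosome pull-down, so neurons, glia and vessels all contributed poly(A) RNA. In such bulk RNA, fewer cells of a type and less RNA per cell cannot be told apart.

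The promoters of 4 genes are shown because these genes carry the results below: Fos and Npas4 for the activity genes, and Tmsb15l and Tmsb15b2 for the genes with the smallest p-values of their comparison. They were chosen after the values were seen. Each is the 250 bases before the start site, 5′ to 3′ on the strand of the gene, from RefSeq on build GRCm38.p6. Capitals mark TGACG, or its reverse complement CGTCA, the core of the cAMP response element. Fos is shown from chr12:85473640-85473889 (plus strand), Npas4 from chr19:4989972-4990221 (minus strand), Tmsb15l from chrX:136976875-136977124 (minus strand) and Tmsb15b2 from chrX:136957980-136958229 (minus strand).
Fos: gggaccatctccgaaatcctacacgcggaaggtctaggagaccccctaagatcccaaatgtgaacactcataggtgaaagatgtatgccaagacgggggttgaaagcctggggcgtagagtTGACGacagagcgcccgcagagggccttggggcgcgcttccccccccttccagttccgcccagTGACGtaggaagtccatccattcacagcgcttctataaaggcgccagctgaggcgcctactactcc
Npas4: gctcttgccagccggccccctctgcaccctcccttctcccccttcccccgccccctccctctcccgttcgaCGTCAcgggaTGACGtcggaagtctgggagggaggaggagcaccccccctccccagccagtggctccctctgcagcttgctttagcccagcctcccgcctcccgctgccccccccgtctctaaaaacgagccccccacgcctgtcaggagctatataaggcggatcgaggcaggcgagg
Tmsb15l: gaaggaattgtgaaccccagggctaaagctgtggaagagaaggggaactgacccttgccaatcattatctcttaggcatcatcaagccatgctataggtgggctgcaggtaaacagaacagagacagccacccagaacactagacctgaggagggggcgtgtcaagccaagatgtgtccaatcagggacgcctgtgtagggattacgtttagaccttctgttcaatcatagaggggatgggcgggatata
Tmsb15b2: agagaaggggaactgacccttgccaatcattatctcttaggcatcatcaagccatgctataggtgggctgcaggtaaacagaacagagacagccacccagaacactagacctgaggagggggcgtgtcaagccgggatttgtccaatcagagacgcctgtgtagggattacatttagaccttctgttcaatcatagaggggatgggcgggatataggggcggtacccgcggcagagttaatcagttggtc

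The Fos window holds the core at -129 and -66 from the start site, and the Npas4 window holds it at -179, on the opposite strand, and at -169. Neither Tmsb15 window holds it. Searched on both strands and in the same 250 bases, TGACG was present in 17.8% of all 32851 promoters of the table. It was present in 8 of 12 promoters of the Fos and Jun family (66.7%), in 16 of 23 of the Egr, Nr4a and other immediate early factors (69.6%), in 13 of 31 of the activity effectors (41.9%) and in 6 of 30 of the glucocorticoid response genes (20%). The windows of Tmsb15l and Tmsb15b2 aligned at 210 identical bases, 84% of the 250. A match describes letters in a window and says nothing of binding.

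The 10 punches differed in the markers of neighbouring nuclei that they held. Tissue was taken with 4 punches of 1 mm per mouse from frozen sections of 300 μm. All 16 markers of BLA projection neurons were detected. In the library trained 2, however, the 23 striatal and central amygdala markers summed to 6508 CPM (a share of the library's counts, put on a common scale with TMM factors), against 1107 to 2651 CPM in the other trained controls and 1197 to 2617 CPM in naive controls. The same library had the lowest sum of BLA projection neuron markers, 2124 CPM, against 4198 to 5198 CPM in naive controls, and the other trained controls were at up to 6378 CPM. Slc17a7, the vesicular glutamate transporter of these projection neurons, was at 377 CPM in trained 2 and at 1417, 2157, 1542 and 1796 CPM in trained 1, 3, 4 and 5, against 1366 to 1670 CPM in naive controls. Adora2a, the adenosine receptor of indirect-pathway striatal neurons, was at 257 CPM in trained 2 and at 14.8 to 87.9 CPM in the other trained controls, against 14.2 to 87.8 CPM in naive controls. Trained 2 was the highest library for 22 of the 23 striatal markers and the lowest for 14 of the 16 projection neuron markers.

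**Figure D1:**
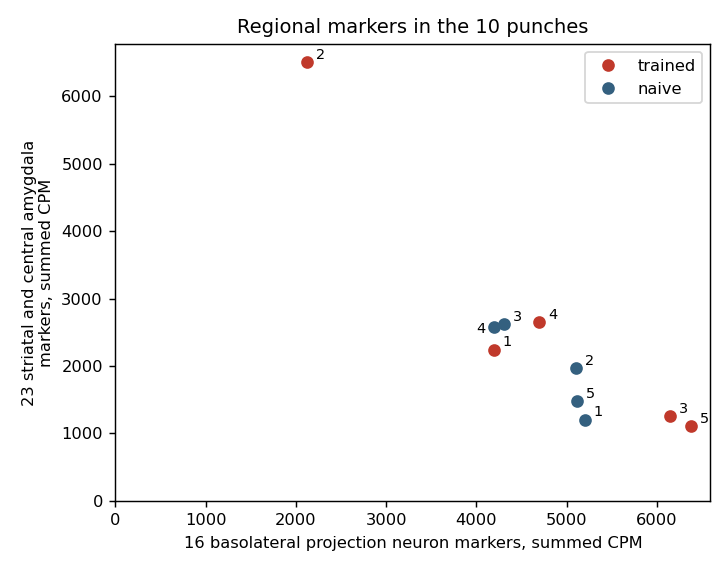
Summed CPM of 23 striatal and central amygdala markers (vertical axis) against summed CPM of 16 basolateral projection neuron markers (horizontal axis) in 5 trained and 5 naive control BLA libraries, numbered by replicate. Trained 2 stands apart at 6508 CPM of striatal and 2124 CPM of projection neuron markers.

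The first principal component of the 10 libraries held 37.6% of the variance, and trained 2 lay at its end with a score of -49.2. Genes with large weights on it included the cholinergic genes Chat, Slc18a3 and Slc5a7, and Scn4b, a sodium channel subunit of striatal neurons. Naive 1 stood apart in another way: it had the fewest detected genes of the 10 libraries, 26442, and the lowest share of mitochondrially encoded counts, 1.77%, against 2.39 to 3.93% in the other naive controls. Trained controls had 2.82 to 4.06%. Total counts were 59266020 to 67685971 in trained controls and 54417083 to 74293510 in naive controls. Over the genes with a mean of at least 1 CPM, the mean correlation between libraries was 0.980 among trained controls, 0.986 among naive controls and 0.984 between trained and naive controls, so a trained library was on average as close to the naive ones as to its own group. Of 16 totals, shares and marker sums, none passed adjustment for a difference between trained and naive controls (2-sided exact permutation over 252 splits, smallest adjusted p = 0.635). The smallest unadjusted p of these was 0.0397, for the astrocyte markers, at 6034 ± 366 CPM in trained and 5608 ± 164 CPM in naive controls (SD, n = 5 each). With 252 splits no permutation p could fall below 0.00794, so a single differing value could not have passed adjustment over 16. The test therefore does not show that the groups held the same tissue.

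The first question was whether the classic activity genes stood higher 1 h after the shock. Fos was at 25.7, 13.9, 37.6, 19.8 and 31.2 CPM in trained controls 1 to 5, against 6.31, 20.8, 20.4, 33.3 and 15.4 CPM in naive controls 1 to 5. The lowest trained library for Fos, trained 2, lay below 4 of the 5 naive libraries, and naive 4 lay above 4 of the 5 trained ones. The log2 fold change of Fos, trained over naive, was 0.41 ± 0.35 (standard error, SE), with a 95% interval of 0.823 to 2.16 on the fold scale, and it did not pass the test (edgeR quasi-likelihood F test, 2-sided, unadjusted p 0.258). In this comparison every gene had an adjusted p of 1.00 (edgeR, Benjamini-Hochberg), so the p-values below are unadjusted and none marks a call. Without naive 1 it was 0.19 (unadjusted p 0.558), without trained 2 it was 0.57 (unadjusted p 0.126), and without both it was 0.35 ± 0.31 (unadjusted p 0.276).

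Fosb, an AP-1 partner whose stable splice form builds up with repeated activity, was at 47.4, 18.9, 55.9, 44.5 and 45.6 CPM in trained controls, against 13.8, 30.0, 29.5, 48.2 and 25.5 CPM in naive controls. For Fosb, 4 trained libraries clustered high, trained 2 lay with the low naive ones, and naive 4 lay with the high trained ones. The log2 fold change of Fosb was 0.53 ± 0.29 (unadjusted p 0.0866), and 0.54 ± 0.23 without trained 2 and naive 1 (unadjusted p 0.0327).

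Egr1, also called Zif268, was at 204, 179, 203, 185 and 200 CPM in trained controls, against 77.6, 189, 177, 225 and 142 CPM in naive controls. The trained libraries lay close together, within the wide naive range. Their mean was 194 ± 11.4 CPM, against 162 ± 55.8 CPM in naive controls (SD, n = 5 each), a log2 fold change of 0.26 ± 0.21 (unadjusted p 0.226). Without naive 1 it was 0.08 (unadjusted p 0.614).

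Egr3 was at 145, 105, 177, 160 and 168 CPM in trained controls, against 87.3, 118, 113, 154 and 106 CPM in naive controls. For Egr3, 4 of the 5 trained libraries were above all naive libraries but naive 4. The log2 fold change of Egr3 was 0.38 ± 0.16 with an unadjusted p of 0.0306, which did not survive adjustment over all genes. Egr4 was at 45.2, 24.8, 58.5, 46.5 and 50.0 CPM in trained controls, against 17.9, 32.6, 31.6, 52.4 and 26.2 CPM in naive controls, a log2 fold change of 0.48 ± 0.23 (unadjusted p 0.0529). As for Fosb, trained 2 was low and naive 4 high. Without trained 2 and naive 1, Egr3 had 0.40 ± 0.15 (edgeR, unadjusted p 0.0174) and Egr4 0.49 ± 0.19 (unadjusted p 0.0198). Neither passed adjustment.

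Arc was at 68.5, 72.8, 106, 56.1 and 76.9 CPM in trained controls, against 36.3, 99.3, 83.1, 109 and 61.2 CPM in naive controls. The groups overlapped over almost their whole range, and the log2 fold change of Arc was -0.03 ± 0.25 (unadjusted p 0.891). Its 95% interval on the fold scale was 0.699 to 1.36, with an upper end below 1.5-fold. Npas4, an activity-dependent factor that is induced by calcium entry, was at 15.4, 13.9, 14.4, 16.2 and 12.993 CPM in trained controls, against 9.62, 18.1, 19.1, 13.3 and 9.90 CPM in naive controls. Its trained libraries lay inside the naive range, with a log2 fold change of 0.05 ± 0.17 (unadjusted p 0.745) and a fold interval of 0.829 to 1.30.

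Bdnf was at 49.3, 8.96, 65.9, 29.4 and 34.2 CPM in trained controls, against 34.5, 40.5, 29.2, 57.9 and 44.7 CPM in naive controls. Trained 2 held the lowest value of all 10 libraries and trained 3 the highest. The log2 fold change of Bdnf was -0.14 ± 0.44 (unadjusted p 0.753) with a fold interval of 0.497 to 1.65. Its sign turned to 0.11 without trained 2, the library with few projection neuron markers.

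Inhba, the activin subunit that neurons make after synaptic activity, had the smallest p of the activity genes. It was at 17.2, 15.3, 13.3, 13.6 and 9.63 CPM in trained controls, against 6.98, 10.7, 9.63, 10.9 and 8.55 CPM in naive controls. In 4 of the 5 trained libraries Inhba was above every naive library, and trained 5 lay among the naive ones. Inhba averaged 13.8 ± 2.81 CPM in trained and 9.35 ± 1.62 CPM in naive controls, a log2 fold change of 0.56 ± 0.17 with an unadjusted p of 0.00339 and an adjusted p of 1.00 (edgeR). Without trained 2 and naive 1 it was 0.43 ± 0.18 (unadjusted p 0.0276).

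**Figure D2:**
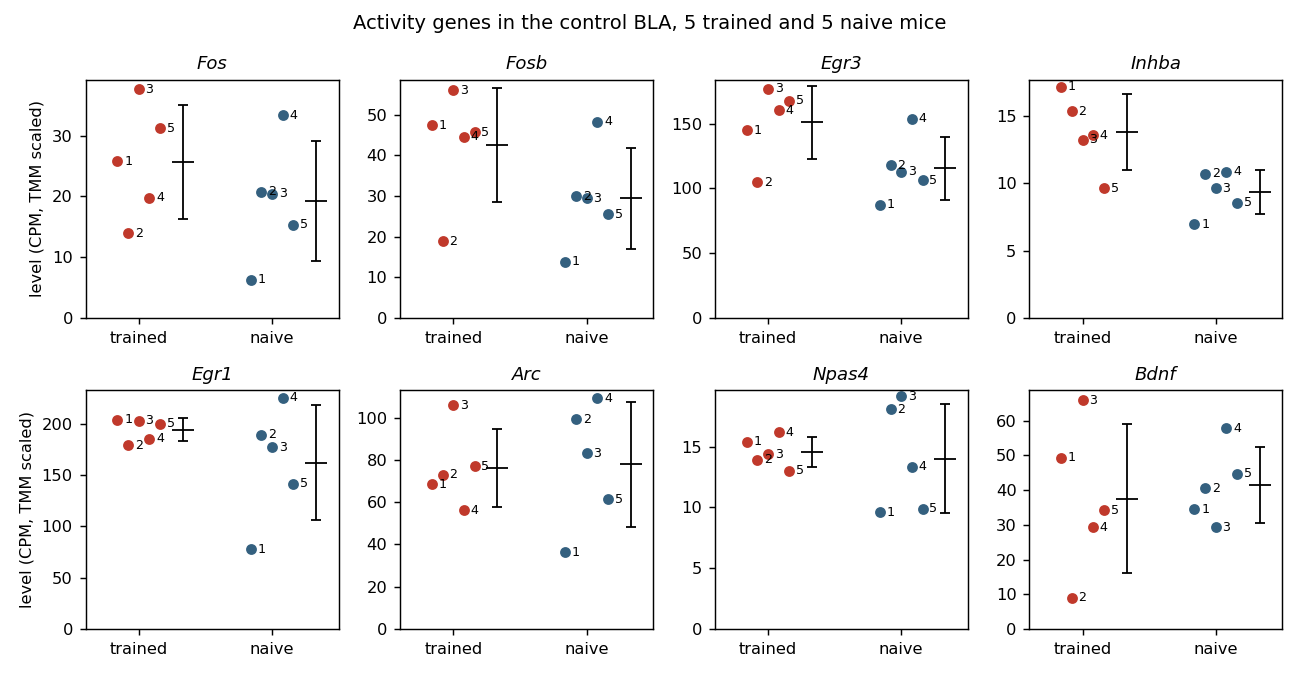
Level in CPM (TMM scaled) of 8 activity genes in the control BLA of 5 trained and 5 naive mice; points are single mice numbered by replicate, and the bar beside each group is its mean ± SD. The groups overlap for every gene shown; Inhba is above all naive mice in 4 of 5 trained mice, and naive 1 is the lowest mouse for Fos, Fosb, Egr3, Inhba, Egr1, Arc and Npas4.

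Over all 23168 genes tested, none passed an adjusted p of 0.05 in trained against naive controls (0.00%). edgeR gave 484 genes an unadjusted p under 0.05 (2.09%), 266 of them higher (1.15%) and 218 lower (0.941%) in trained controls. That share lies below the 0.05 that such a threshold gives on average without any effect. DESeq2 called 2 genes, Tmsb15l (log2 fold change 0.84, adjusted p = 0.0239) and the predicted gene Gm10284 (-2.85, adjusted p = 0.0473), and gave 575 genes an unadjusted p under 0.05. limma-voom called 0 and gave 534. The design was able to exclude larger changes for most genes: of the 16335 genes with a mean of at least 1 CPM, 96.5% had a 95% interval that excluded a 2-fold difference in either direction, and 82.7% one that excluded a 1.5-fold difference. All 5 trained libraries lay above all 5 naive ones for 51 genes (0.220%) and below them for 45 (0.194%). Tissue was homogenized individually per the labels, so these p-values measure the spread between mice.

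**Figure D3:**
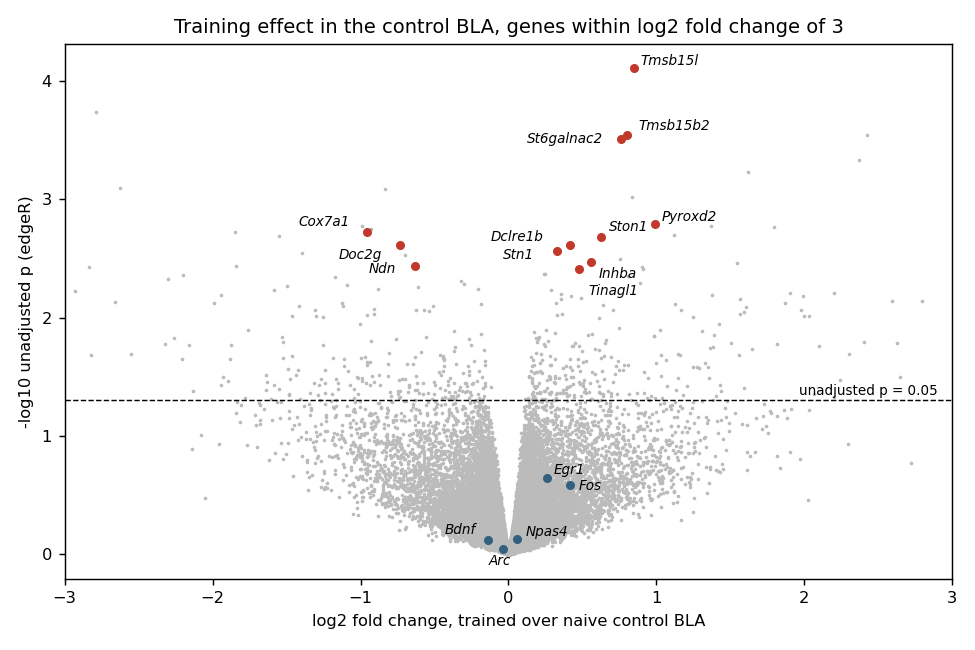
Log2 fold change of trained over naive control BLA (horizontal axis, drawn from -3 to 3) against -log10 of the unadjusted edgeR p (vertical axis), with 1 point per gene. Red points are the 12 named genes with the smallest p and blue points are Fos, Egr1, Arc, Npas4 and Bdnf; Tmsb15l has the smallest p, 7.83e-05, and no gene passed after adjustment.

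Genes of the activity lists were spread on both sides of 0. Across all genes, 51.6% had a log2 fold change above 0 and the median was 0.01. In the Fos and Jun family, 10 of 11 genes passed the filter on low counts and 8 of these were above 0, with a median of 0.14; Batf, with at most 10 counts in any library, did not pass. None of the family had an unadjusted p under 0.05. Besides Fos and Fosb, the smallest p-values belonged to Atf3, a stress-induced factor (0.79 ± 0.50, unadjusted p 0.13), and to the small Maf protein Mafk (0.10 ± 0.10, unadjusted p 0.33). Fosl2, Junb, Jun and Jund had 0.19, 0.07, -0.01 and -0.03.

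Of the 20 Egr, Nr4a and other immediate early factors, 11 were above 0, with a median of 0.03, and Egr3 alone had an unadjusted p under 0.05. Nr4a1 stood at -0.03 ± 0.22 and Nr4a2 at 0.08 ± 0.29, while Zfp36, which destabilizes messenger RNAs, had 0.36 ± 0.22 and Ier3 had -0.17 ± 0.14. Of the 30 activity effectors, 15 were above 0, with a median of -0.0012. After Inhba the smallest p-values were those of Per1, the clock gene that also responds to cAMP signals (0.28 ± 0.16, unadjusted p 0.0953), Homer1, a scaffold with an activity-induced short form (0.18 ± 0.11, unadjusted p 0.116), and the F-box gene Fbxo33 (0.05 ± 0.07, unadjusted p 0.526). Of the 17 inhibitors that feed back on MAP kinase signalling, 9 were above 0, and the smallest p-values were those of Spred1 (0.17 ± 0.09, unadjusted p 0.0637) and Spry1 (-0.16 ± 0.10, unadjusted p 0.121).

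Naive 1 was the lowest of the 10 libraries for 5 of the 10 Fos and Jun genes, 11 of the 20 immediate early factors and 9 of the 30 effectors. Trained 3 was the highest for 6, 9 and 12 of them. Trained 2, the library with striatal markers, was the lowest for 13 of the 30 effectors. Without trained 2 and naive 1, the medians of the same 3 lists were 0.14, 0.04 and 0.05, and 10 of 10, 12 of 20 and 19 of 30 members were above 0.

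Shock and handling also reach the amygdala through stress hormones. Corticosterone acts on the glucocorticoid receptor, which switches on Fkbp5, Sgk1, Pdk4, Tsc22d3 and other targets within hours. Of 28 glucocorticoid response and CRH genes, 27 passed the filter and 24 were above 0 (88.9%), with a median of 0.11. Hif3a, a hypoxia factor subunit that the receptor induces, was at 2.06, 4.98, 3.74, 7.73 and 4.47 CPM in trained controls, against 3.92, 1.97, 3.60, 2.00 and 2.50 CPM in naive controls. It had the one unadjusted p under 0.05 in the list (0.72 ± 0.31, unadjusted p 0.0301), with trained 1 among the lowest libraries. Fkbp5, the chaperone that restrains the receptor, was at 38.4, 55.4, 50.7, 48.9 and 54.6 CPM in trained controls, against 44.2, 43.1, 44.4, 38.9 and 41.7 CPM in naive controls. For Fkbp5, 4 trained libraries exceeded every naive one and trained 1 was the lowest of all 10, which gave 0.22 ± 0.11 (unadjusted p 0.0572).

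Sgk1, a kinase induced by the receptor, was at 32.2, 74.4, 43.8, 47.6 and 43.6 CPM in trained controls, against 29.7, 33.8, 44.9, 40.0 and 33.8 CPM in naive controls. The highest value was again in trained 2, and the log2 fold change of 0.41 ± 0.24 was 0.13 (unadjusted p 0.599) without trained 2 and naive 1. Pdk4, a brake on pyruvate oxidation, had 0.24 ± 0.13 (unadjusted p 0.0767), and 0.14 without those libraries. Without them, 22 of the 27 genes of the list stayed above 0, with a median of 0.13. Trained 2 was the highest library for 11 of the 27 genes. The receptor genes Nr3c1 and Crhr1 had 0.08 ± 0.07 and 0.05 ± 0.16, and Crh itself had -0.02 ± 0.37.

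Of 19 circadian clock genes, 16 were above 0, with a median of 0.06; Bhlhe40, which represses clock genes and answers to activity, was at 85.7 ± 8.76 CPM in trained and 70.8 ± 12.6 CPM in naive controls (0.28 ± 0.12, unadjusted p 0.0312). Without trained 2 and naive 1, 9 of the 19 were above 0, and Bhlhe40 had 0.18 (unadjusted p 0.0915). Of 22 heat shock chaperones, 8 were above 0, with a median of -0.03. Without trained 2 and naive 1, 16 were above 0, with a median of 0.04. Hspa8, the constitutive chaperone of the cytosol, was at 451, 246, 644, 447 and 448 CPM in trained controls, against 335, 272, 235, 288 and 433 CPM in naive controls (0.52 ± 0.24, unadjusted p 0.0426). For Hspa8, 4 trained libraries were above all naive ones and trained 2 was below 4 of them. Without trained 2 and naive 1, Hspa8 had 0.70 ± 0.24 (unadjusted p 0.00968). The heat-induced relatives Hspa1a and Hspa1b had -0.13 ± 0.20 and -0.25 ± 0.27 over all libraries. Of 20 genes of the integrated stress and unfolded protein responses, 5 were above 0, among them Ppp1r15a, which restores translation after stress, at 12.5 ± 1.16 CPM in trained and 10.2 ± 1.29 CPM in naive controls (0.29 ± 0.12, unadjusted p 0.0253). Without trained 2 and naive 1, 9 of the 20 were above 0.

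**Figure D4:**
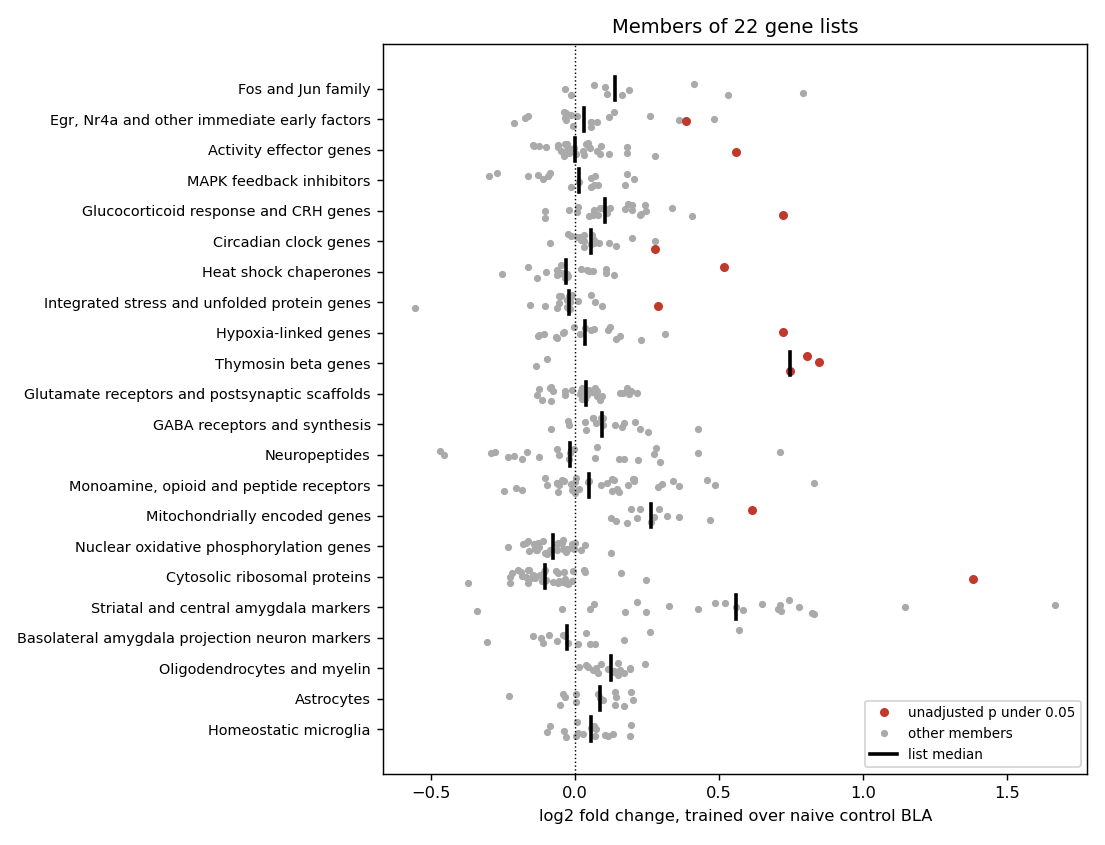
Log2 fold change of trained over naive control BLA (horizontal axis) for each member of 22 gene lists that passed the filter on low counts; black bars are list medians and red points have an unadjusted edgeR p under 0.05. Most lists centre near 0; the striatal markers centre at 0.56, the mitochondrially encoded genes at 0.26 and the thymosin beta genes at 0.75.

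Genes of synapses, channels and transmitters held no unadjusted p under 0.05. Of 36 glutamate receptor and postsynaptic scaffold genes, 25 were above 0 and the median was 0.04; Grm5, a metabotropic receptor needed for fear learning, had 0.19 ± 0.10 (unadjusted p 0.0695) and Dlg2, the scaffold PSD-93, had 0.17 ± 0.09 (unadjusted p 0.0829). Without trained 2 and naive 1 each had 0.05. Of 19 genes of GABA receptors and synthesis, 16 were above 0, with Gabra5 at 0.25 ± 0.13 (unadjusted p 0.0754); 11 were above 0 without the 2 libraries. Of 25 neuropeptide genes that passed, 10 were above 0. Tac1, the substance P precursor and a striatal marker here, had 0.71 ± 0.64, and -0.41 without trained 2 and naive 1.

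In the remaining lists of neuronal and signalling genes the medians lay within 0.07 of 0. Above 0 were 16 of 31 presynaptic genes, 10 of 18 interneuron markers, 23 of 37 monoamine, opioid and peptide receptors, 18 of 30 potassium channels, 17 of 22 calcium and sodium channels, 20 of 29 chromatin regulators, 7 of 11 neurotrophins and receptors and 10 of 25 regulators of the actin cytoskeleton. Without trained 2 and naive 1 these counts were, in the same order, 21, 12, 18, 12, 8, 14, 7 and 19. Of 19 hypoxia-linked genes 11 were above 0, and Hif3a was again the one with an unadjusted p under 0.05. Of 23 cholesterol synthesis genes 7 were above 0. Of 20 cytokine and NF-kB target genes, 13 passed the filter and 7 of these were above 0; the inflammatory genes Il6, Tnf, Cxcl1, Cxcl2, Ccl2, Sele and Selp did not pass. Of 9 nuclear long noncoding RNAs 1 was above 0. Without trained 2 and naive 1, the hypoxia-linked, cholesterol, cytokine and noncoding RNA counts were 8, 15, 6 and 3.

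Medians also lay off 0 in lists of mitochondrial genes, ribosomal genes and tissue markers. All 13 mitochondrially encoded genes were above 0, with a median of 0.26, led by the complex I subunit gene ND4L (0.61 ± 0.28, unadjusted p 0.0424). The list's median was 0.12 without naive 1, the library with the lowest mitochondrial share. Of 30 nuclear genes of oxidative phosphorylation, 26 were below 0, with a median of -0.07, and of 38 cytosolic ribosomal protein genes, 33 were below 0, with a median of -0.10. Without trained 2 and naive 1, those medians were 0.02 and -0.03. Rpl30, among the 5 ribosomal genes above 0, was at 6.19, 6.90, 25.3, 22.2 and 35.2 CPM in trained controls, against 10.8, 7.05, 5.35, 6.70 and 6.88 CPM in naive controls (1.38 ± 0.53, unadjusted p 0.0177). In 3 trained libraries Rpl30 was above every naive library and the other two lay among them.

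Of the 23 striatal and central amygdala markers, 21 were above 0, with a median of 0.56 and no unadjusted p under 0.05; without trained 2 and naive 1, none of the 23 was above 0 and the median was -0.34. All 18 oligodendrocyte genes were above 0, with a median of 0.12, and 3 of 18 without these libraries. The 12 meningeal fibroblast genes had a median of 0.32, and 0.01 without trained 2 and naive 1. The 17 microglial genes had a median of 0.05 and the 15 astrocyte genes 0.09, each with no unadjusted p under 0.05, and -0.04 and 0.08 without trained 2 and naive 1. Cldn5, the tight junction protein of brain endothelium, was at 28.3, 22.4, 30.5, 21.2 and 19.9 CPM in trained controls, against 46.9, 31.5, 23.8, 36.8 and 29.7 CPM in naive controls (-0.46 ± 0.18, unadjusted p 0.0208). The highest Cldn5 value was in naive 1, and without trained 2 and naive 1 the value was -0.29 (unadjusted p 0.152). Of the 22 endothelial and pericyte genes 17 were above 0, and 9 without trained 2 and naive 1. Above 0 were also 7 of 16 BLA projection neuron markers, 2 of 7 claustrum, 6 of 10 thalamus and 6 of 12 hippocampal markers, 5 of 10 choroid plexus and 4 of 6 blood genes that passed the filter. Without trained 2 and naive 1 these counts were 16, 5, 2, 8, 4 and 6. Pdgfra, which marks oligodendrocyte precursors, a list with 8 of 10 genes above 0 and 4 of 10 without trained 2 and naive 1, was at 69.8 ± 6.00 CPM in trained and 61.0 ± 6.72 CPM in naive controls (0.19 ± 0.09, unadjusted p 0.0431).

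The smallest p of the whole comparison belonged to Tmsb15l, a thymosin beta gene of the X chromosome whose products bind monomeric actin. It was at 3.49, 4.18, 4.62, 4.16 and 5.58 CPM in trained controls, against 2.54, 2.58, 2.13, 2.28 and 2.72 CPM in naive controls. Every trained library was above every naive library. The means were 4.41 ± 0.77 CPM in trained and 2.45 ± 0.24 CPM in naive controls (SD, n = 5 each), a log2 fold change of 0.85 ± 0.17 with a fold interval of 1.43 to 2.26. The unadjusted p was 7.83e-05 and the adjusted p 1.00 (edgeR), while DESeq2 gave an adjusted p of 0.0239.

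Its neighbour Tmsb15b2 was at 2.75, 2.81, 3.40, 3.14 and 4.48 CPM in trained controls, against 1.86, 1.93, 1.94, 1.497 and 2.27 CPM in naive controls. Here too the groups did not overlap (0.80 ± 0.18, unadjusted p 0.000288). Tmsb15b1 was at 1.19, 2.23, 1.92, 1.60 and 1.95 CPM in trained controls, against 1.36, 1.21, 0.699, 1.26 and 0.764 CPM in naive controls, with trained 1 among the naive libraries (0.75 ± 0.27, unadjusted p 0.0122). The highly expressed relatives Tmsb4x and Tmsb10 had -0.10 ± 0.14 and -0.14 ± 0.12. Tmsb15a had 0 counts in every library.

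Reads of the 3 Tmsb15 genes cannot be assigned with certainty. In the GENCODE M21 transcripts their pairs were 95.3 to 97.3% identical over the shorter transcript, and 17.2 to 69.6% of the 50-base windows of one were present in the other, where a read is also 50 bases long. The 3 genes are therefore best read as a sum. That sum was 9.50 ± 1.68 CPM in trained and 5.41 ± 0.47 CPM in naive controls (SD, n = 5 each), from 7.42 to 12.0 CPM in trained and from 4.77 to 5.76 CPM in naive controls. Leaving out any 1 library kept the log2 fold change of Tmsb15l between 0.75 and 0.92, and without trained 2 and naive 1 it was 0.88 ± 0.20.

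Behind Tmsb15l and Tmsb15b2 in the ranking by p, with a mean of at least 1 CPM and a gene name, came 18 genes, Inhba among them, each with an adjusted p of 1.00 (edgeR). St6galnac2, a sialyltransferase, was at 2.92, 2.57, 2.02, 2.79 and 2.26 CPM in trained controls, against 1.205, 1.55, 1.91, 1.38 and 1.38 CPM in naive controls (0.76 ± 0.17). Its groups did not overlap. Pyroxd2, a mitochondrial oxidoreductase-like gene, was at 2.87, 1.63, 1.15, 1.59 and 1.64 CPM in trained controls, against 0.979, 1.11, 1.05, 0.615 and 0.708 CPM in naive controls (0.99 ± 0.27). Its groups did not overlap either, though trained 3 and naive 2 nearly met.

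Ston1, an endocytic adaptor, had 0.63 ± 0.18, Dclre1b, the telomere nuclease Apollo, 0.41 ± 0.12, and Stn1, a subunit of the telomere CST complex, 0.33 ± 0.10. Stn1 averaged 11.6 ± 0.73 CPM in trained and 9.24 ± 0.45 CPM in naive controls, with no overlap. Tinagl1 had 0.48 ± 0.15, Tspyl5 0.25 ± 0.08, the splicing factor Sf3a2 0.24 ± 0.07, the carboxypeptidase Cpq 0.81 ± 0.25 and Ppara, a receptor for fatty acids, 0.36 ± 0.12. The groups also did not overlap for Dclre1b, Tinagl1 and Cpq, and overlapped for Ston1, Tspyl5, Sf3a2 and Ppara. Baiap2l1 had 3.02 ± 0.96, which rested on trained 1 alone: it was at 16.9 CPM there and at 0.445 to 0.707 CPM in the other trained controls, against 0.361 to 0.522 CPM in naive controls. Without trained 1 it was 0.17 ± 0.54.

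Of the 20 genes, 6 had lower means in trained controls. Cox7a1, a cytochrome oxidase subunit, had -0.95 ± 0.27 and -0.68 without naive 1, its highest library. Doc2g had -0.74 ± 0.21, Faap24, of the Fanconi anaemia core, -0.32 ± 0.10, Exd1 -0.61 ± 0.20 and Ift46, of the ciliary transport complex, -0.20 ± 0.07. The groups did not overlap for Faap24, Exd1 and Ift46, and overlapped for Cox7a1 and Doc2g. Ndn, the imprinted gene of necdin, was at 372, 153, 196, 173 and 288 CPM in trained controls, against 406, 351, 331, 388 and 352 CPM in naive controls (-0.63 ± 0.19, unadjusted p 0.00364). For Ndn, 3 of the 5 trained libraries lay far below every naive one while trained 1 lay among the naive ones, and without trained 1 the value was -0.85 ± 0.16. Leaving out trained 2 instead gave -0.51 ± 0.18. Leaving out trained 2 and naive 1 gave -0.47 ± 0.19 (edgeR, unadjusted p 0.0267), the weakest value of all alternatives.

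The same training contrast in the BLA of APP/Tau mice, which add human APP (Swedish and Indiana mutations) and human tau P301S to the alleles above, gave larger estimates for several activity genes. It compares 4 trained with 5 naive APP/Tau mice. Regional markers differed in this contrast too. The 23 striatal and central amygdala markers had a median of -0.28 with 1 above 0, against 0.56 in controls. The 16 BLA projection neuron markers had a median of 0.28 with 13 above 0, against -0.03 in controls. The part of punch content in the values below was not tested. Fos was at 27.4 ± 7.88 CPM in trained and 9.96 ± 4.77 CPM in naive APP/Tau mice, a log2 fold change of 1.46 ± 0.38, against 0.41 ± 0.35 in controls. The trained groups of both genotypes were close, at 27.4 CPM in APP/Tau mice and 25.7 CPM in controls, while the naive groups were at 9.96 CPM in APP/Tau mice and 19.2 CPM in controls. Fosb, Egr1 and Arc had 1.27 ± 0.31, 0.89 ± 0.22 and 0.65 ± 0.26 in APP/Tau mice. Npas4 went the other way, at -0.21 ± 0.18 in APP/Tau mice and 0.05 ± 0.17 in controls. Bdnf had 0.20 ± 0.47 in APP/Tau mice and -0.14 ± 0.44 in controls. None of these passed adjustment over all genes in APP/Tau mice, where 0 genes were called and 1356 of 23168 (5.85%) had an unadjusted p under 0.05 (edgeR). DESeq2 called 14 genes there, among them the activity genes Fosl2 (log2 fold change 1.24, adjusted p = 0.0105), Nr4a2 (1.503, adjusted p = 0.0297) and Egr4 (1.08, adjusted p = 0.0305).

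Whether the training effect differs between genotypes was tested directly, and no gene passed (edgeR, 0 called of 23168; 894, or 3.86%, at an unadjusted p under 0.05; 0 by DESeq2 and limma-voom). For Fos the unadjusted p of this interaction was 0.0576, for Egr1 0.0502, for Arc 0.0705 and for Fosb 0.0992. Nr4a2, a nuclear receptor of the same family as Nr4a1 and also a claustrum marker here, had an unadjusted interaction p of 0.00321 (edgeR). Its training effect was 1.5 ± 0.31 in APP/Tau mice and 0.08 ± 0.29 in controls, and it was chosen after its values were seen. Inhba had nearly the same value in both genotypes, 0.53 ± 0.18 in APP/Tau mice and 0.56 ± 0.17 in controls. The median of the Fos and Jun family was 0.85 in APP/Tau mice and 0.14 in controls, and 7 and 0 of its 10 genes had an unadjusted p under 0.05.

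In the APP/Tau BLA, 3.21% of all genes were higher and 2.64% lower at that threshold. In the hippocampus of controls, 6 trained and 5 naive mice, the training effect on Fos was 0.49 ± 0.31, close to the 0.41 ± 0.35 of the control BLA. Egr1 had 0.46 ± 0.25, Arc 0.08 ± 0.23, Npas4 0.34 ± 0.18 and Bdnf 0.26 ± 0.18. No gene was called there (0 of 25791; 624, or 2.42%, at an unadjusted p under 0.05; 0 by DESeq2 with 718), where 1.17% were higher and 1.24% lower in trained mice. No gene passed the test of a difference in training effect between the 2 tissues of controls (edgeR, 0 of 24877; 575, or 2.31%, at an unadjusted p under 0.05), where the smallest adjusted p was 0.0562, for the low-count predicted gene Gm10284. The unadjusted p of this interaction was 0.862 for Fos and 0.0741 for Inhba, which had 0.17 ± 0.13 in the hippocampus. Per the labels, BLA libraries came from punches and had a lower library input than hippocampal ones, so tissue and input cannot be told apart.

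Tmsb15l had 0.85 ± 0.17 in the control BLA, 0.72 ± 0.18 in the APP/Tau BLA (unadjusted p 0.000732) and 0.67 ± 0.16 in the control hippocampus (unadjusted p 0.000554), with interaction p-values of 0.616 by genotype and 0.391 by tissue. The tissue test took libraries as independent, although a mouse may have given both tissues, so the values of the 2 control tissues may not be independent. Averaged over both genotypes of the BLA, a fit added after the data were seen, Tmsb15l had 0.78 ± 0.12 and an adjusted p of 0.0923 (edgeR, 0 genes called, and 3.77% of all genes at an unadjusted p under 0.05). The summed level of the 3 Tmsb15 genes was 7.45 ± 1.35 CPM in trained and 4.55 ± 1.07 CPM in naive APP/Tau BLA, 9.73 ± 1.05 CPM in trained and 6.19 ± 1.19 CPM in naive control hippocampus, and 8.08 ± 1.75 CPM in trained and 5.66 ± 1.22 CPM in naive APP/Tau hippocampus. The lowest trained and the highest naive sums were 5.70 and 5.69 CPM in the APP/Tau BLA and 7.94 and 7.26 CPM in the control hippocampus. In the APP/Tau hippocampus they were 6.02 and 7.08 CPM, so there the groups overlapped. St6galnac2, next in the ranking, had -0.03 ± 0.12 in the control hippocampus, with an unadjusted tissue interaction p of 0.00111. Pyroxd2, which follows it, had 1.14 ± 0.30 there (edgeR, unadjusted p 0.00103), with an unadjusted tissue interaction p of 0.673. In the same tissue Ndn had -0.37 ± 0.16, while Ston1 and Dclre1b had -0.09 ± 0.13 and -0.08 ± 0.09.

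**Figure D5:**
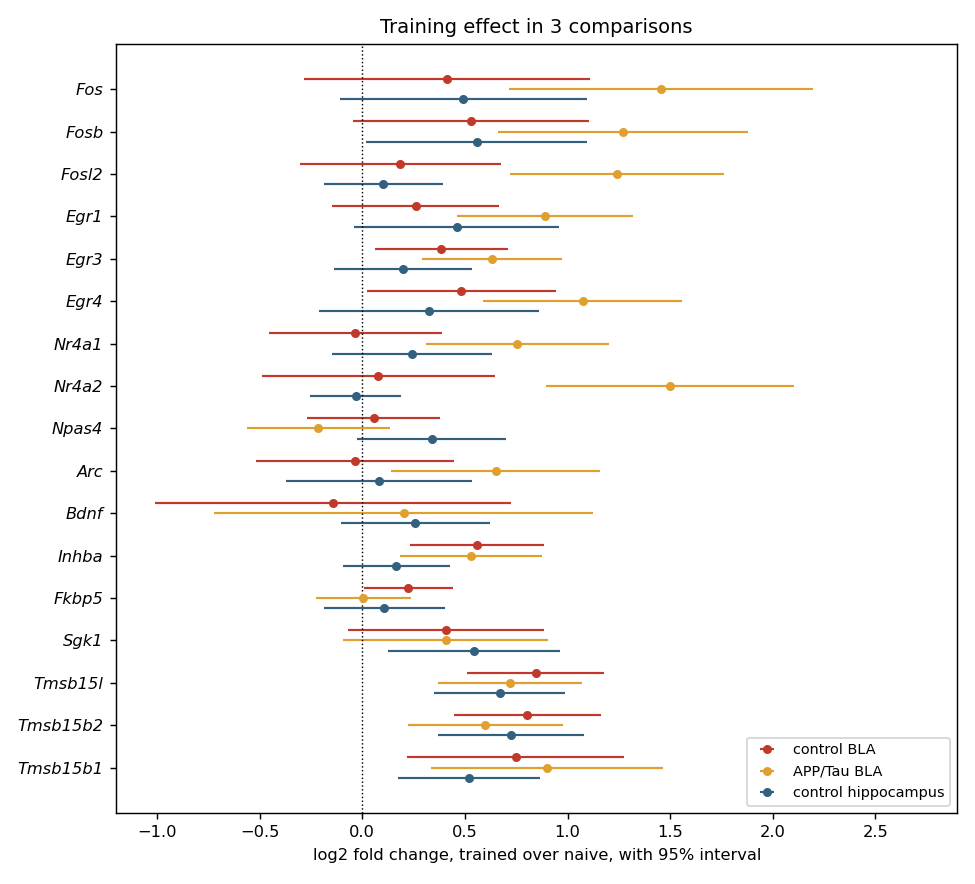
Log2 fold change of trained over naive mice with its 95% interval (horizontal axis) for 17 genes in the control BLA, the APP/Tau BLA and the control hippocampus. The APP/Tau intervals for Fos, Fosb, Fosl2, Egr1 and Nr4a2 lie to the right of 0 while the control BLA intervals of the same genes include 0; Tmsb15l lies between 0.67 and 0.85 in all 3 comparisons.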

How the data were processed

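Gene counts of poly(A) RNA from single mice were deposited by the authors as raw whole numbers per gene symbol and library, after trimming with Trimmomatic 0.39 and alignment to mm39 (both per the submitters' processing notes), while aligner, counter, annotation and strand setting remain not given in the sources used here. Even numbers made up 59.9 to 69.0% of counts from 1 to 20, which can arise when mates are counted apart, so halved counts were an alternative. Of 50559 symbols, 48908 matched a GRCm38.p6 RefSeq table. All 19 BLA libraries were fitted with 4 group means in edgeR 4.0.16 (R 4.3.3): filterByExpr (minimum count 10, minimum total 15), TMM, quasi-likelihood F test, Benjamini-Hochberg adjustment over all genes and a threshold of 0.05. The hippocampus (20 libraries) and the tissue interaction (21 control libraries; a mouse may have given both tissues, and blocks by number were alternatives) were fitted likewise. The SE was derived from the fold change and its F statistic. Intervals span 1.96 SE on each side, a normal multiple, and are somewhat narrower than the F test implies. No library pair was a duplicate (smallest chi-square per gene 10.0 over 45 pairs). Named genes are Fos, Arc, Npas4, Egr1, Bdnf, the 20 named genes with the smallest p at a mean of at least 1 CPM, and up to 4 per list by p; others were chosen after their values were seen. The members and all 40 lists were chosen with earlier results of these data known. Alternatives were DESeq2 1.42.0, limma-voom 3.58.1, RLE factors, other filters, a replicate block, only the 2 groups, a striatal covariate and leaving out each library; averaging genotypes and leaving out trained 2 with naive 1 were added after seeing the data. The test was tried on simulated counts first.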

Additional observations from a re-analysis of the deposited data

Results flagged for a closer look

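In 82 groups of 5 libraries, the highest or lowest library was compared with the nearest of the others, as a share of the group's range. Chance marks about 1 in 20 such groups, and 8 were marked (critical value 0.71). Trained 2 was marked for 3 marker sums. Its striatal and central amygdala markers were at 6508 CPM against 1107 to 2651 CPM in the other trained controls (0.714), its oligodendrocyte markers at 5058 against 2452 to 3197 CPM (0.714), and its meningeal fibroblast markers at 173 against 86.8 to 102 CPM (0.824). Naive 1 was marked for hippocampal neuron markers, at 835 against 929 to 964 CPM in the other naive controls (0.73), and for Ston1, at 2.56 against 3.74 to 4.21 CPM (0.717). Naive 2 was marked for oligodendrocyte markers, at 2559 against 3154 to 3324 CPM (0.777). Trained 1 was marked for Baiap2l1, at 16.9 against 0.445 to 0.707 CPM in the other trained controls (0.984), and for Pyroxd2, at 2.87 against 1.15 to 1.64 CPM (0.711).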

How the results depend on the processing

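The count of 0 called genes in the control BLA was the same in 20 of 21 alternatives. Of these 20, 1 averaged both genotypes and so tested another contrast. DESeq2 called 2 genes, and 1 of its calls, Tmsb15l, is a list member, so the lists then held 1 call. DESeq2 also called 14 genes in the APP/Tau BLA and 3 for the tissue interaction (Gm10284, Aoc3, Gm4478). Leaving out each library gave 0 to 0 calls for both BLA effects, the genotype interaction and the hippocampus, with 361 to 978 genes at an unadjusted p under 0.05 in the control BLA. For the tissue interaction it gave 0 to 1: Gm10284 passed without BLA naive 2 (adjusted p = 0.0452) and without BLA trained 3 (adjusted p = 0.0044, both edgeR). With a replicate block within tissue, or a block by description number, the interaction had 0 calls and its smallest adjusted p was 0.302 and 1.00 (edgeR), against 0.0562 without a block. The cause was not tested. Replicate numbers did not pair mice: the correlation of same-numbered deviations ran from -0.42 to 0.23, and 1 of 5 trained libraries correlated best with its own number. With a replicate block 0 genes were called and 419 had an unadjusted p under 0.05. Tmsb15l passed under DESeq2 alone. The median SE was 0.17 over all genes and 0.12 at a mean of at least 1 CPM; the part of depth in this was not tested.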

Other observations

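The sample descriptions give 10 of the control BLA libraries and 10 control hippocampal libraries a shared number, without stating that a number is a mouse. Across these 10 numbers, Fos in the BLA and Fos in the hippocampus moved together. The trained numbers had 25.7, 13.9, 37.6, 19.8 and 31.2 CPM in the BLA and 16.2, 14.7, 20.3, 13.1 and 27.7 CPM in the hippocampus. The naive numbers had 6.31, 20.8, 20.4, 33.3 and 15.4 CPM in the BLA and 5.62, 14.011, 13.5, 23.4 and 11.6 CPM in the hippocampus. Pearson's r was 0.93 (permutation p = 0.00064, adjusted p = 0.0032 over 5 genes) and Spearman's rho 0.83 (permutation p = 0.00492, adjusted p = 0.0246), and r was 0.83 without the 2 numbers farthest from the median of the BLA values. Within trained and within naive numbers, 5 each, r was 0.72 and 0.99, as a description. For Egr1, r was 0.80 (permutation, adjusted p = 0.0126) and rho 0.72 (adjusted p = 0.059). Without the 2 farthest numbers r was 0.60 for Egr1, and within trained and within naive numbers it was 0.38 and 0.81. For Arc, Npas4 and Bdnf, r was 0.62, 0.55 and 0.30, with adjusted permutation p-values of 0.0838, 0.127 and 0.43; without the 2 farthest numbers it was 0.52, -0.25 and 0.68.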
